A study of Mus musculus with 2 samples.

Results

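The annexins and the S100 proteins that bind them were examined in mouse embryonic stem cells (mESCs) depleted of AIMP3, a protein bound to the complex of aminoacyl-tRNA synthetases. The group holds 10 genes, namely *Anxa1*, *Anxa2*, *Anxa3*, *Anxa4*, *Anxa5*, *Anxa6*, *Anxa7*, *Anxa11*, *S100a10* and *S100a11*, among 37018 genes or unnamed transcripts on the array. They were chosen by gene family after log2 ratios of this same comparison, including that of *Anxa1*, were already known. Their values are therefore a description, and no test is given for them. All 10 genes were represented, by 13 probes in total, and on both arrays each of the 13 was well above background for control and for AIMP3-depleted RNA. None was lost to the filter on dim probes.

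AIMP3 was depleted in *AIMP3*f/f;cre-ERT2 mESCs, in which tamoxifen, given as 4-OHT in the study's methods, activates a Cre recombinase that removes the loxP-flanked alleles. Cells were kept for 4 days with LIF and 2 μM tamoxifen, in 2 replicates, whereas control cells with the same alleles received ethanol. Each AIMP3-depleted replicate, in Cy5, shared 1 array with a single Cy3-labelled pool made from control replicates, and the arrays of replicates 1 and 2 are called the first and the second array. The dyes were not swapped, so a difference between the dyes that is specific to a probe cannot be told apart from AIMP3 depletion, nor can an effect of tamoxifen or of active Cre. The promoter that drives the recombinase is not given in the sources used here. The labels describe feeder layers of embryonic fibroblasts as the usual culture, and the study's methods describe fibroblast-conditioned medium during incubation with drugs. *Eef1e1*, which encodes AIMP3, had a log2 ratio of AIMP3-depleted over control RNA of -0.90 on the first array and -0.90 on the second, so the targeted transcript was lower in the libraries labelled depleted. The study's methods word the averaged ratio the other way, as control over test, and the direction used here is that of the dyes in the labels. Because the RNA came from whole cultures, a change in RNA per cell and a change in the share of cells that express a gene cannot be told apart.

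Annexins are cytosolic proteins that bind membranes rich in acidic phospholipids when calcium rises, through a conserved core of annexin repeats. Members differ in the amino-terminal tail ahead of the core, where several of them bind a small EF-hand protein of the S100 family. Annexin A2 forms a complex with S100A10, and annexin A1 binds S100A11. These complexes link membranes to each other and to cortical actin, and they serve in exocytosis, endosome traffic and the repair of torn plasma membranes. Annexin genes are generally more active in epithelial, endothelial and mesenchymal cells than in undifferentiated stem cells.

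Promoter sequences were available for 7 of the 10 genes in a RefSeq table on build GRCm38.p6, as 9 windows because *Anxa4* and *Anxa7* each have 2. *Anxa3*, *Anxa6* and *S100a10* were not matched. The 250 bases before the annotated start are shown for the 4 genes with a window whose log2 ratios were highest, and for *Anxa11*, whose ratio was negative, so that the sequences behind the extremes of the family can be read side by side. Sequences run 5′ to 3′ on the strand of the gene, and capitals mark every match to 5 motifs, each searched on both strands. The motifs were the AP-1 site TGANTCA, the TEAD site GGAATG, the GC box GGGCGG, the CCAAT box CCAAT and the TATA box TATAAA. Within a window 0 of the 20 matches overlapped. The windows of *Anxa7* overlap each other and share 1 GC box, so the matches stand for 19 sites.
*Anxa1* (chr19:20390672-20390921, minus strand): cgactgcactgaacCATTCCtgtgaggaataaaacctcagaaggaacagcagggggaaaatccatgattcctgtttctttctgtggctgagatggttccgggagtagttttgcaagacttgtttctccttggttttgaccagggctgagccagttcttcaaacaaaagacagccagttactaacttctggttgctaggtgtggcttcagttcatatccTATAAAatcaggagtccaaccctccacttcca
*Anxa5* (chr3:36475888-36476137, minus strand): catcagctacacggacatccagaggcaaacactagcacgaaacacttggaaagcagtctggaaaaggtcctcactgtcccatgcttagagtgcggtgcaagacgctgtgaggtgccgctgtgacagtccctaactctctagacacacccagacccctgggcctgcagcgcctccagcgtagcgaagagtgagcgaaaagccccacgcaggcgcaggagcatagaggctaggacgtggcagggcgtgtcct
*Anxa2* (chr9:69453433-69453682, plus strand): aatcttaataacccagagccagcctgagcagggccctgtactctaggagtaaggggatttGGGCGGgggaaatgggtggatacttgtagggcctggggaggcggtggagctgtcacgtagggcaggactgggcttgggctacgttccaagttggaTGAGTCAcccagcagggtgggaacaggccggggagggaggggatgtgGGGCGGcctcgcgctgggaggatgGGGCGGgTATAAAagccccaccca
*S100a11* (chr3:93520246-93520495, plus strand): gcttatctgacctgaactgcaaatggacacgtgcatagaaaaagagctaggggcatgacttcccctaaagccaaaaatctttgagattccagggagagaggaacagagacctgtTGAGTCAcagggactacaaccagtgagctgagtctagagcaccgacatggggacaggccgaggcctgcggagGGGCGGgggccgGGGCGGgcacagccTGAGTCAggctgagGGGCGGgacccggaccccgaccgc
*Anxa11* (chr14:25841905-25842154, plus strand): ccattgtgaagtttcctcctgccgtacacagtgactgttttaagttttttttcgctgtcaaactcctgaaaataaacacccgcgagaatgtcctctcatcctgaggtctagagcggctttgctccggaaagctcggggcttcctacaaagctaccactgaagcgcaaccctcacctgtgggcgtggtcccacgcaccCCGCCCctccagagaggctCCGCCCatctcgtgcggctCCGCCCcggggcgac

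No single motif was present in all of the windows. The window of *Anxa1* held a TATA box that began 32 bases before the start and a TEAD site 236 bases before it, and no GC box. That of *Anxa2* held a TATA box that began 17 bases before the start, 3 GC boxes and 1 AP-1 site, which began 95 bases before the start. *S100a11* had 2 AP-1 sites, at 136 and 38 bases before the start, and 3 GC boxes. The window of *Anxa5* matched 0 of the 5 motifs, and *Anxa11* had 3 GC boxes close to the start and no other match. AP-1 sites were found in 2 of the 9 windows, against 6.75% of all 32851 windows of the same length in the table. GC boxes were found in 5 of 9, against 32.7% of all windows. TATA boxes were found in 2 of 9, against 12.4%, the TEAD site in 1 of 9, against 12.6%, and the CCAAT box in 0 of 9, against 33.8%. The G and C content was 46.0% for *Anxa1*, with 2 CpG pairs, and from 58.0% to 62.4% in the windows of *Anxa5*, *Anxa2*, *S100a11* and *Anxa11*, with 9 to 17, beside a median of 52.4% and 6 pairs over all windows. A match describes the letters in this window only and is not evidence of a bound factor.

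Of the 10 genes, 7 were more than 1.5-fold higher in AIMP3-depleted mESCs, 0 were more than 1.5-fold lower and 3 lay within these limits. Across all 24021 genes tested, 1327 (5.52%) were called raised and 190 (0.791%) lowered, where a call needed a mean log2 ratio past 1.5-fold and an unadjusted p under 0.05 by limma. Since the genes were picked with this comparison known, nothing is read from the difference between these shares. The split of all calls differed between ways of processing the signals, with 1942 raised and 771 lowered when the scanner's own processed signals, which differ in both background subtraction and dye normalization, were used, 2130 and 617 in the deposited value table and 2823 and 65 after median centring. The median log2 ratio of the 10 genes was 0.95, against 0.02 for all genes tested. The log2 ratio was positive on both arrays for 9 genes and negative on both for *Anxa11*.

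**Figure D1:**
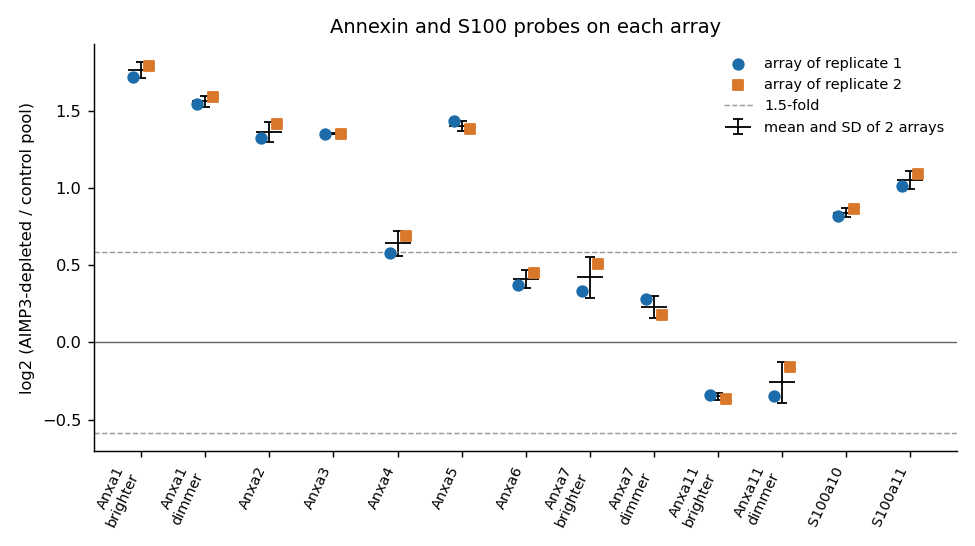
Log2 ratio of AIMP3-depleted over control RNA for each of the 13 probes, with circles for the first array, squares for the second, and a bar for the mean with its SD (n = 2). Dashed lines mark 1.5-fold. *Anxa1* lies highest, *Anxa4* sits at the upper dashed line and both probes of *Anxa11* lie below 0.

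*Anxa1* encodes annexin A1, an anti-inflammatory protein that signals through formyl peptide receptors and binds S100A11. The intensity of its brighter probe was 7460 in the control pool and 24618 in AIMP3-depleted RNA on the first array, and 7497 and 26008 on the second. Depleted RNA was thus the brighter on each array. The log2 ratio was 1.76 ± 0.051 (SD, n = 2), or 3.38-fold, which ranked 6 from the top among 24021 genes. The dimmer probe for the same transcript gave 1.54 and 1.59 on the arrays, 0.18 and 0.20 below the brighter probe. The gap between the probes was larger than the spread of either over the arrays, and both probes pointed the same way.

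*Anxa2* encodes annexin A2, which binds plasminogen activators at the cell surface and links membranes to actin. Its intensity was 23168 in the control pool and 57742 in AIMP3-depleted RNA on the first array, and 23345 and 61996 on the second. This gave a log2 ratio of 1.36 ± 0.065 (SD, n = 2), or 2.57-fold.

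*S100a10*, also called p11, encodes the light chain of the annexin A2 complex and is unusual among S100 proteins in that it does not need calcium to bind its partner. Its intensity was 6278 in the control pool and 11056 after AIMP3 depletion on the first array, and 6340 and 11468 on the second. Its log2 ratio was 0.84 ± 0.027 (SD, n = 2), or 1.78-fold. *S100a10* was therefore higher on both arrays, and its difference was smaller than that of *Anxa2* on each of them.

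*S100a11* encodes the calcium-dependent partner of annexin A1. Its intensity was 4345 in the control pool and 8776 in AIMP3-depleted RNA on the first array, and 4170 and 8906 on the second. Its log2 ratio was 1.05 ± 0.057 (SD, n = 2), or 2.08-fold. In each annexin and S100 pair the S100 gene thus had the lower ratio on both arrays, 1.05 against 1.76 for *S100a11* and *Anxa1*, and 0.84 against 1.36 for *S100a10* and *Anxa2*.

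*Anxa5* encodes annexin A5, which coats membranes that expose phosphatidylserine and, as a purified and labelled protein, is the common stain for dying cells. Its transcript gave intensities of 6571 in the control pool and 17652 in AIMP3-depleted RNA on the first array, and 6345 and 16557 on the second. The resulting log2 ratio was 1.40 ± 0.030 (SD, n = 2), or 2.65-fold. This is a value for endogenous transcript and not for the stain.

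*Anxa3* encodes annexin A3, a member found in neutrophils and in several epithelia. Its intensity was 1298 in the control pool and 3305 after AIMP3 depletion on the first array, and 1250 and 3188 on the second. The log2 ratio was 1.35 on each array, with an SD of 0.0016, the smallest among the members, and the fold was 2.55. With 2 arrays such a small SD says little about the true spread.

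*Anxa4*, which encodes an annexin of secretory epithelia, was the member nearest the threshold. It had an intensity of 1383 in the control pool and 2065 in AIMP3-depleted RNA on the first array, and 1364 and 2204 on the second. Its log2 ratio of 0.64 ± 0.080 (SD, n = 2), or 1.55-fold, was just past 1.5-fold, and the first array alone gave 0.58, just under it. The scanner's own processed signals also gave 0.58.

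**Figure D2:**
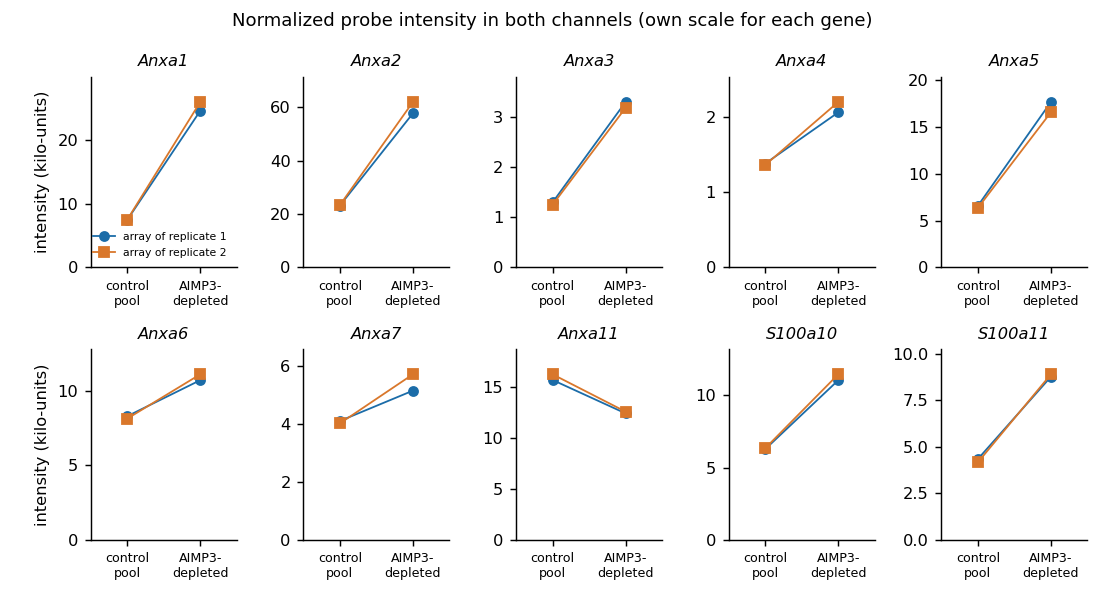
Normalized intensity of the brightest probe of each gene, in scanner units (kilo-units on the axis), in the control pool and in AIMP3-depleted RNA, with 1 line per array. Each gene has its own axis from 0, since levels of different probes are not comparable. The lines of the arrays nearly coincide, and the line of *Anxa11* runs downwards.

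*Anxa6* and *Anxa7* lay within 1.5-fold. *Anxa6* encodes the largest annexin, which carries a duplicated core and acts in endocytic and cholesterol traffic. Its intensity was 8318 in the control pool and 10746 after depletion on the first array, and 8156 and 11142 on the second, a log2 ratio of 0.41 ± 0.057 (SD, n = 2). *Anxa7*, which encodes the annexin also called synexin, had a log2 ratio of 0.33 and 0.51 on the arrays with its brighter probe. Its dimmer probe gave 0.28 and 0.18. Both genes were brighter in AIMP3-depleted RNA on both arrays, by less than the other members with a positive ratio.

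*Anxa11* was the only member with a lower intensity after AIMP3 depletion. Annexin A11 has a long amino-terminal tail, ties RNA granules to lysosomes and takes part in the last step of cell division. Its intensity was 15685 in the control pool and 12405 in AIMP3-depleted RNA on the first array, and 16243 and 12573 on the second. The log2 ratio was -0.35 ± 0.022 (SD, n = 2), within 1.5-fold. The dimmer probe gave -0.35 and -0.16, so it pointed the same way with a wider spread. After median centring, which shifted the median of all genes to 0.18, the ratio of *Anxa11* was -0.07, still negative and below that median.

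In the order of the log2 ratios, *Anxa1* stood above *Anxa5* by 0.35 ± 0.081 (SD of the paired difference, n = 2). *Anxa5*, *Anxa2* and *Anxa3* followed within the spread of the arrays. *Anxa5* exceeded *Anxa2* by 0.11 on the first array and was 0.03 below it on the other (difference -0.03), and *Anxa2* and *Anxa3* also changed places between the arrays. *S100a11* lay 0.30 ± 0.055 below *Anxa3*, *S100a10* lay 0.22 ± 0.030 below *S100a11* and *Anxa4* lay 0.20 ± 0.053 below *S100a10*, with the same order on both arrays. *Anxa7* lay 0.22 ± 0.047 below *Anxa4* and could not be ordered against *Anxa6*, the difference being -0.04 on one array and 0.06 on the other. The largest step, 0.76 ± 0.079, separated *Anxa6* from *Anxa11*. This is an order of brightest probes, and the SD leaves out differences between probes of the same gene. Such differences, brighter minus dimmer, were 0.18 and 0.20 on the arrays for *Anxa1*, 0.05 and 0.33 for *Anxa7* and 0.01 and -0.21 for *Anxa11*. Steps of about 0.20 therefore do not establish an order of the transcripts.

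**Figure D3:**
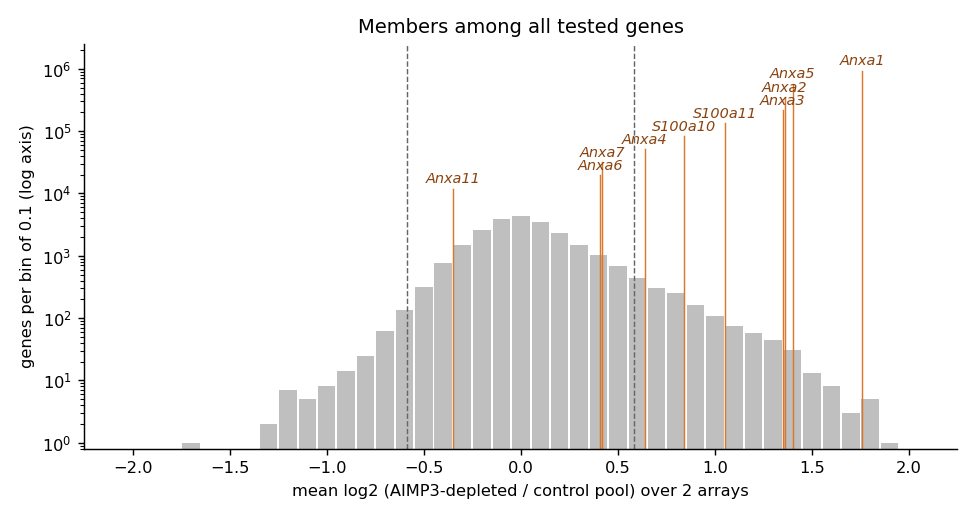
Number of genes per bin of 0.1 in the mean log2 ratio, on a log axis, for the 24021 genes tested, with a vertical line for each member, whose height carries no value. Dashed lines mark 1.5-fold. *Anxa1*, at 1.76, is in the far right tail, and *Anxa11*, at -0.35, is on the left of the centre.

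The control channel of both arrays held the same pool, so the difference between the arrays in that channel reflects technical steps such as hybridization and scanning. It was taken after normalization, in which the value of each channel draws on both dyes. For the member probes it lay between -0.06 and 0.05 on the log2 scale, whereas the central 95% of the 30593 probes that were well above background throughout ran from -0.21 to 0.22. In the channel of AIMP3-depleted RNA, where replicates differ as well, the member probes differed by -0.13 to 0.16, against -0.25 to 0.25. The spread of the member probes over the arrays was hence small beside every log2 ratio past 1.5-fold. It does not include the spread between control cultures, which were pooled.

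The remaining annexins on the array were *Anxa8*, *Anxa9*, *Anxa10* and *Anxa13*, of which 2 could be tested. *Anxa8* was raised, with log2 ratios of 0.81 and 0.90 on the arrays and a mean of 0.85 ± 0.068 (SD, n = 2; limma, Benjamini-Hochberg adjusted p = 6.82e-05), and 0.64 on the other probe. This p-value and those given below rest on 2 arrays against 1 control pool and may measure technical spread only. *Anxa9*, whose product lacks the usual calcium sites, had 0.25 and 0.09. *Anxa10* and *Anxa13* did not pass the filter on dim probes and were not tested.

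Of 14 other S100 genes 10 were tested, of which 5 were raised and 0 lowered, with a median log2 ratio of 0.58. *S100a4*, a gene of motile and mesenchymal cells, had the highest ratio, 1.33 and 1.47 on the arrays (mean 1.40 ± 0.096, SD, n = 2; limma, adjusted p = 3.54e-05), and a second probe for the gene gave 1.32. *S100g*, which encodes the calcium buffer calbindin-D9k, was raised by 1.23 ± 0.21, and *S100a6*, whose product calcyclin binds annexins A2, A6 and A11, by 0.88 ± 0.10 (SD, n = 2). *S100z* had 0.61 ± 0.095 and was at 0.54 on the first array, under 1.5-fold. *S100b* was not well above background in the control pool, so its rise over the mean of both arrays is at least 1.55-fold, but its log2 ratios were 0.75 and 0.52, the second under 1.5-fold. Among those that were not called, *S100a1* was lowest at 0.09 and *S100a13* highest at 0.54. *S100a7a*, *S100a8*, *S100a9* and *S100a14* did not pass the filter on dim probes.

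Most S100 genes of the mouse lie in clusters on chromosome 3. In the RefSeq gene order 12 of them, from *S100a1* to *S100a9*, followed each other with 0 other protein-coding genes between them, and *S100a11* and *S100a10* were direct neighbours 56 genes further on. Of the 12, 7 were tested and 2 were raised, *S100a4* and *S100a6*. *S100a5*, which lies between these, had a log2 ratio of 0.14 (0.06 and 0.21 on the arrays) and *S100a3* had 0.43 (0.25 and 0.61). Both were dim, with control intensities of 189 and 175 for *S100a5* and 195 and 168 for *S100a3*. Those of *S100a4* were 4291 and 4136, and those of *S100a6* 23317 and 22452. The measured ratios of these neighbours were therefore unequal, but an effect of low signal on the ratios of the dim probes was not tested. No difference between neighbours was tested.

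Genes whose products work with annexins were taken from 5 further lists. Together with the other annexins and S100 genes these made 7 lists of 61 genes, of which 41 were tested, 16 were raised, 0 were lowered and 25 were not called, with a median log2 ratio of 0.43. The 16 include *S100b* and *Fpr2*, which passed the filter through AIMP3-depleted RNA only, and 14 were raised when both channels had to be well above background. The share raised among all genes was 5.52%, as above. Among partners of annexin A2 and S100A10, 3 of 7 were raised. *Ahnak*, which encodes a giant scaffold protein that S100A10 recruits to the membrane, had 1.31 ± 0.021 (SD, n = 2; adjusted p = 3.54e-05 by limma). On 3 further probes the values were 0.30, 0.99 and 1.01. *Plaur*, the urokinase receptor, had 0.98 ± 0.078 and *Ctsb*, which encodes cathepsin B, 0.73 ± 0.0048. Tissue plasminogen activator (*Plat*), at 0.57, lay just within 1.5-fold, and the calcium channel gene *Trpv6* had -0.18, with a probe that was well above background in AIMP3-depleted RNA on 1 of the 2 arrays.

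For annexin A1, 2 of the 8 genes on the receptor and phospholipase list, 7 of which were on the array, could be tested. *Fpr2*, the formyl peptide receptor of annexin A1, was called raised, but it was not well above background in the control pool on either array, so its rise is at least 1.60-fold. *Pla2g4a*, which encodes the cytosolic phospholipase A2 that annexin A1 inhibits, had 0.53 and 0.80 on the arrays, a mean of 0.67 ± 0.19 (SD, n = 2; adjusted p = 0.000536 by limma), with the first array under 1.5-fold.

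Penta-EF-hand proteins include ALG-2 and sorcin, which bind the tails of annexins A7 and A11, and the calpains, proteases that cleave annexin A1. Of these 7 genes 2 were raised. *Capn2*, the catalytic subunit of m-calpain, had 1.27 ± 0.034 (SD, n = 2; adjusted p = 3.54e-05 by limma) and *Sri*, which encodes sorcin, 0.93 ± 0.085. *Pdcd6*, which encodes ALG-2, had 0.23, *Capn1* had 0.07, *Pef1* was highest of those not called at 0.26 and *Gca* was lowest at -0.08.

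Proteins of membrane repair act beside annexins at wounds. On this list 2 of 6 tested genes were raised, *Dysf*, which encodes dysferlin, at 0.86 ± 0.044 and *Pdcd6ip*, which encodes the ESCRT partner ALIX, at 0.77 ± 0.071 (SD, n = 2; adjusted p = 5.88e-05 and 9.32e-05 by limma). *Ehd1* at 0.55 was highest of those not called and *Vps4b* at 0.10 was lowest. Among scramblases and flippases, which set how much phosphatidylserine annexin A5 can reach, 1 of 7 was raised. It was the flippase gene *Atp11a*, at 0.91 ± 0.017, and its other probe gave 1.08. The scramblase genes *Xkr8* and *Ano6* had 0.23 and 0.20, and *Atp8a1* was highest of those not called at 0.44.

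**Figure D4:**
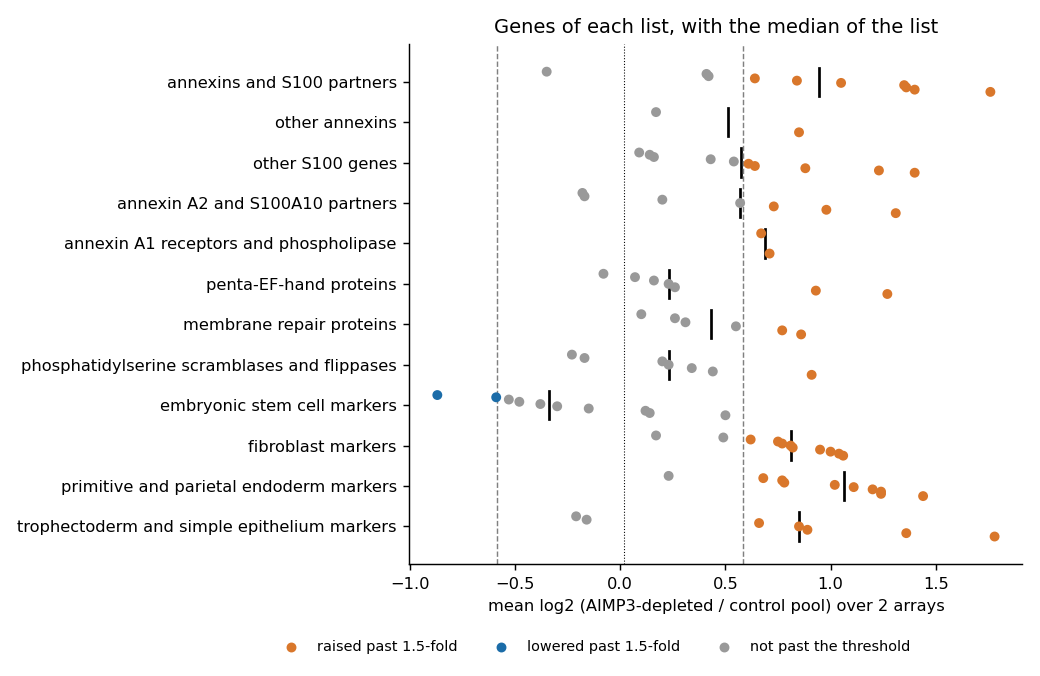
Mean log2 ratio over both arrays for every tested gene, with 1 row per list and a black bar at the median of the list. Orange points are raised and blue points lowered past 1.5-fold, grey points are not, dashed lines mark 1.5-fold and the dotted line marks the median of all genes, 0.02. The members have a median of 0.95, endoderm markers 1.06 and stem cell markers -0.34.

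Markers of other cell types were raised in the same RNA. The mESC markers, among them *Pou5f1*, *Nanog* and *Sox2*, were all well above background in the control pool on both arrays (10 of 10), 0 were raised and 2, *Fgf4* and *Tdgf1*, were lowered, with a median log2 ratio of -0.34. Their summed intensity was 324917 and 321422 in the control channels and 332162 and 320519 in the AIMP3-depleted channels. Such sums weigh bright probes most, and each was also taken without its brightest gene after the values were seen. Without *Dppa5a*, whose log2 ratio was 0.50, the stem cell sum was 188990 and 186396 in control and 137729 and 132391 in depleted channels. The stem cell markers *Klf4* and *Esrrb* also had ratios above 0, at 0.14 and 0.12. *Nanog* had -0.38 on its brighter probe and 0.06 on the other, and *Pou5f1* had -0.64 and -0.32 on the arrays. Of 11 tested fibroblast markers 9 were raised, with log2 ratios from 0.17 to 1.06 and a median of 0.81, and all 11 were well above background in the control pool. Their summed intensity was 22103 and 22847 in the control channels and 40138 and 40623 in the depleted channels, and without *Col1a1* 15361 and 15990 against 26159 and 26158. Of 10 markers of primitive and parietal endoderm 9 were raised (median 1.06, range 0.23 to 1.44), and their summed intensity went from 177478 and 184287 to 379947 and 380042, and without *Sparc* from 89993 and 92792 to 169121 and 167929. Nearly all of it came from the matrix genes *Sparc*, *Lamb1*, *Lama1* and *Col4a1*, at 87485, 42541, 37026 and 7557 in the first control channel. The regulators *Gata4*, *Gata6*, *Sox17* and *Sox7* lay between 207 and 407 in the control channels, with log2 ratios of 0.77, 1.20, 1.44 and 1.11. Of 7 tested markers of trophectoderm and simple epithelium 5 were raised (median 0.85, range -0.21 to 1.78), with summed intensities of 65716 and 67631 against 186563 and 198122, and of 20209 and 19848 against 32274 and 32036 without the keratin gene *Krt18*. *Eomes* and *Tfap2c*, of this list, had -0.16 and -0.21. *Lum* and *Elf5* did not pass the filter on dim probes. The part of these cell types in the annexin values was not tested.

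**Figure D5:**
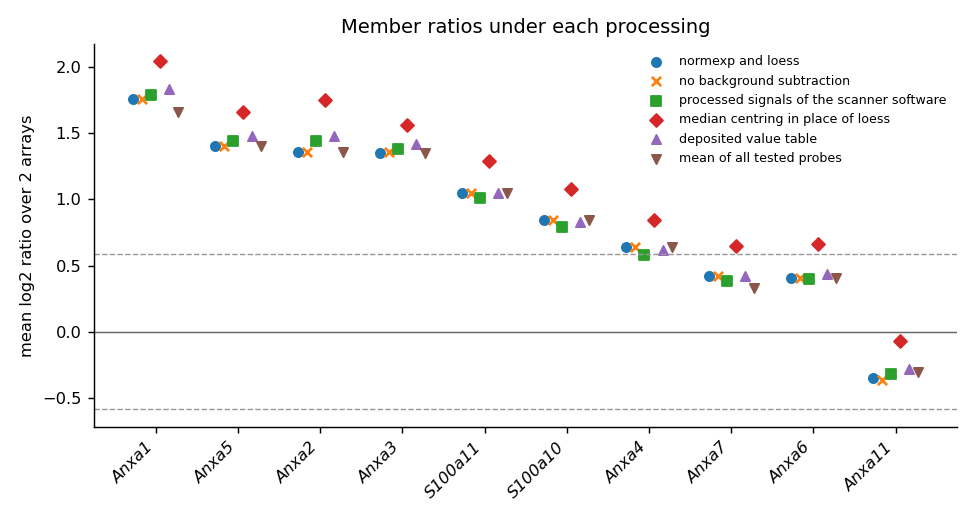
Mean log2 ratio of each member over both arrays under each processing of the spot intensities, with 1 symbol per setting. Dashed lines mark 1.5-fold. Median centring, shown as diamonds, gives the highest value for every member, *Anxa4* moves around the threshold and *Anxa11* stays below 0.

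The sign of every member's ratio was the same under each background correction, dye normalization and probe rule and in the deposited value table. Median centring, under which the median of all genes was 0.18, placed 9 members past 1.5-fold, adding *Anxa6* (0.66) and *Anxa7* (0.65). The processed signals placed 6, without *Anxa4*. Over 2-fold, 5 members were higher, namely *Anxa1*, *Anxa2*, *Anxa3*, *Anxa5* and *S100a11*.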

How the data were processed

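Agilent mouse arrays of 2 AIMP3-depleted mESC replicates (Cy5) against 1 pooled control (Cy3) were used. Per the file headers, spot intensities and local backgrounds came from Feature Extraction 11.5.1.1, and the authors deposited them without further normalization. The processed intensities and the log10 ratio that the authors deposited with them were background-subtracted and dye-normalized by that software. The value table deposited by the authors contains log2 ratios made in GeneSpring, and these equalled the ratio of the processed signals plus 0.040 and 0.039 (within 0.01) for 99.8% of probes on each array. The direction is therefore AIMP3-depleted over control, opposite to the wording of the study's methods. The medians of its columns were 0.091 and 0.111.

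Median signals were corrected with normexp (offset 50) and normalized by loess in limma. Control spots and spots with an outlier flag (215 and 227) were left out, and 0 spots were saturated. A probe was kept if on each array it was well above background in Cy3 or Cy5 (33010 of 55681), and the brightest probe stood for a gene. Of 59305 spots that were not controls, 31014 carried an accession with a RefSeq name (GRCm38.p6). The array was designed on another build, so no probe coordinates are given, and promoter windows and gene order are those of RefSeq on GRCm38.p6. Single-channel intensities were scaled between arrays by Aquantile. Ratios were tested against 0 across all genes by limma (lmFit and eBayes, 1 residual and 5.24 prior degrees of freedom) with Benjamini-Hochberg adjustment, which leaves out the spread between control cultures. All 1517 calls had an adjusted p under 0.05. The steps were tested on simulated data. A dim probe's rise is a lower bound, the mean of the bright channel against the lowest signal well above background, or the probe's own where higher, and such a bound is open to dye bias. The number of arrays limits the precision, and nothing states that the replicates were separate cultures, so p-values may measure technical spread only.

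The members and gene lists were chosen with earlier results of these data known. The named genes are all members, every called gene of the partner lists with the highest and lowest of those not called, and a few others picked after their values were seen (marker genes, *S100a3*, *S100a5*, *Pdcd6*, *Capn1*, *Xkr8*, *Ano6*). A gene that this rule names is not reported here. Alternatives were other background corrections and normalizations, the authors' values, other filters, probe rules, thresholds and tests, and each replicate left out. The software was limma 3.58.1 in R 4.3.3, with jsonlite 2.0.0 and the data.table package (1.17.8).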

Additional observations from a re-analysis of the deposited data

How the results depend on the processing

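The number of members past 1.5-fold, 7, ranged from 6 to 9 over the alternatives at that threshold, with 6 on the first array alone and 7 on the second, and 5 members were past 2-fold. The count of all changed genes, 1517, was 2713 with the processed signals, 2888 with median centring, 2747 in the deposited value table and 298 at a 2-fold threshold. With the methods' t-test 992 genes passed unadjusted and 0 after Benjamini-Hochberg adjustment. Of the 16 list genes called by limma, 4 passed at 2-fold, 11 with the methods' t-test unadjusted and 0 with it after adjustment. Over the other alternatives, 14 to 19 list genes were called. For the 3 members with several probes, the probes shared their sign under each of the normalizations, filters and single arrays for which this was computed. Of 43 alternative values of single members that could move freely, leaving out single arrays and members with 1 probe under the mean of probes, 20 moved by less than the SD between arrays and 23 by more. Of all 70 alternative values 0 changed sign. No paired analysis was possible because the control is 1 pool without replicate numbers. With 1 sample of control RNA and unswapped dyes, no alternative bears on the spread between control cultures or on a dye difference specific to a probe.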
